A study of Caenorhabditis elegans with 2 samples.

Results

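Histones are the proteins that package DNA into nucleosomes, and their genes in the nematode Caenorhabditis elegans were examined for binding of the transcription factor UNC-3. The histone genes were the protein-coding genes of the Ensembl annotation of the WBcel235 genome whose symbol is "his" followed by a number, which gave 72 loci of 19985 protein-coding genes. Near-identical copies share a symbol in that annotation, so the 72 loci carried 50 distinct symbols, and each locus is named here by its own RefSeq symbol. By their RefSeq product names, 20 encode histone H3, 17 encode H2A, 16 encode H2B and 16 encode H4, while his-24 encodes a linker histone and his-39 and his-73 have no single type. A gene's window was the gene with 1000 bp on both sides, and a peak belonged to a window when its summit lay inside.

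As background, H2A, H2B, H3 and H4 form the protein core of the nucleosome, and the linker histone H1 binds the DNA where it enters and leaves. Genes for the core histones that are deposited at DNA replication are present in many near-identical copies, lie in clusters, and are often read outward in divergent pairs from a short shared stretch. Replacement variants such as H3.3 are made outside replication as well, and their genes usually stand alone and carry introns. UNC-3 is the worm member of the COE family of transcription factors and is known for switching on the genes that define cholinergic motor neurons.

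UNC-3 was located by ChIP-seq, the sequencing of DNA fragments precipitated with an antibody, in late embryos of hermaphrodites, taken whole, 4 h after synchronization by bleaching. The strain, OP578, has the genotype unc-119(tm4063) III; wgIs578, and its integrated transgene expresses UNC-3 fused at its C terminus to a GFP-FLAG tag. An antibody against GFP was used on sonicated chromatin, in 2 biological replicates of this 1 group, with no second condition. All cells of the embryo were mixed, so the cells in which a peak arose cannot be told apart, and sequencing depth is unknown.

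The deposited peak lists held 754 peaks that passed the irreproducible discovery rate (IDR, a measure of agreement between replicates), 15515 peaks called on both replicates pooled, 20517 peaks of replicate 1 and 21474 peaks of replicate 2. The last 3 lists hold weak and background peaks as well, since they served as input to the IDR step. The signal of a peak is the value that the authors' peak caller gave it. Its scale is not stated in the labels or notes, so it serves only to describe and rank peaks, with rank 1 the strongest of a list. Signals ranged over 60.2 to 997 in the IDR list, with a median of 84.6, and over 20.1 to 997 in the pooled list, with a median of 25.5. With a single group there is no contrast between conditions, and every count below is a description set beside the same count over all protein-coding genes, which include the histone genes.

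The genes were arranged in 19 clusters when neighbours less than 10000 bp apart were joined. Of the 72 genes, 62 formed 31 divergent pairs, 16 of H2A with H2B, 14 of H3 with H4, and his-67 with his-68, which pairs H4 with H2A. The stretch between the 2 starts of a pair was 227 to 368 bp long, with a median of 258 bp. No UTR is annotated at the 64 single-exon genes, so their starts are those of the coding sequence. Many copies were identical: 37 genes had a coding sequence equal to that of another gene, and only 49 distinct coding sequences were present.

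The sequences between or before some of the starts are shown because peaks were found at some and not at others, and because the stretches share short runs of bases. All are from the WBcel235 sequence, 5′ to 3′ on its forward strand, and capitals mark TATAAA read on either strand and the 8 bases CTGCGGGG, which read CCCCGCAG on the other strand. The stretch between his-2 (H3) and his-1 (H4) is V:16042284-16042519, and that between his-6 (H3) and his-5 (H4) is V:8534978-8535213. The stretch between his-50 (H4) and his-49 (H3), V:8847705-8847942, occurs base for base a second time between his-28 and his-27. The stretch between his-12 (H2A) and his-11 (H2B), II:13821582-13821808, occurs 3 times in the genome, once as its reverse complement between his-44 and his-43. The 200 bases before the H4 gene his-37 are V:9546905-9547104, and those before the linker histone gene his-24 are X:14489894-14490093.
his-2/his-1: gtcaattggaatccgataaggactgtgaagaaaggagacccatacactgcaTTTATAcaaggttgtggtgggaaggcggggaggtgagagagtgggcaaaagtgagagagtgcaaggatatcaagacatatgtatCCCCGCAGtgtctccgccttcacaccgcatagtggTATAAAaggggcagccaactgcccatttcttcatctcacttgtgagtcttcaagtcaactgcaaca
his-6/his-5: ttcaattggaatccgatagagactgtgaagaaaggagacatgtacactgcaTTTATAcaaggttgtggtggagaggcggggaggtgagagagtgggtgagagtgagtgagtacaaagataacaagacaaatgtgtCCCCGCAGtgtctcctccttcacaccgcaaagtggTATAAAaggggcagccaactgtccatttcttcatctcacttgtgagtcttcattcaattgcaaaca
his-50/his-49: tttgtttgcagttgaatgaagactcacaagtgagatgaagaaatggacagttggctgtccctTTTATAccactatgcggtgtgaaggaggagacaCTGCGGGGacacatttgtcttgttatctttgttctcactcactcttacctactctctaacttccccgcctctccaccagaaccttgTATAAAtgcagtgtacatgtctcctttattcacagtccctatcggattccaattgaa
his-12/his-11: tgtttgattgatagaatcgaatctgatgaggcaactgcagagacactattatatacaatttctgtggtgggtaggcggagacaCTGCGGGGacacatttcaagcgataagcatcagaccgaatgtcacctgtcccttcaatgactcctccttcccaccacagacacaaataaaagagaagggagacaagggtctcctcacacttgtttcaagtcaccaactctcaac
his-37 upstream: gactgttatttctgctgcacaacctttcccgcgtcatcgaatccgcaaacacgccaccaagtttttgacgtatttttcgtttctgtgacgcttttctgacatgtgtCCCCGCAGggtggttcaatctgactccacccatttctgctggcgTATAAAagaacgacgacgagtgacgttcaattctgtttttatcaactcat
his-24 upstream: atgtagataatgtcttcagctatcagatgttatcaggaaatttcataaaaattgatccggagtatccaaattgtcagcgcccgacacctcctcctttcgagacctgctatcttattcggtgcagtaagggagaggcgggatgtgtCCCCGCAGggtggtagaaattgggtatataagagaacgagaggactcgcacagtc

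Reproducible peaks were few. An IDR summit lay in the window of 4 of 72 histone genes (5.56%), against 4.5% of all protein-coding genes, a share near the background. The 4 genes were his-41, his-37, his-67 and his-68, and they shared 2 distinct peaks, because neighbouring windows overlap. The same 4 genes held a summit among the 754 strongest peaks of each replicate (5.56%), against 3.16% of all protein-coding genes. By divergent pair, an IDR summit lay in the windows of 2 of 31 histone pairs (6.45%), against 9.84% of all 1697 divergent protein-coding pairs. By cluster, 2 of 19 held one.

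The stronger of the 2 peaks lay before the H4 gene his-37. Its summit was at V:9547014, 91 bp upstream of the his-37 start and between genes, in a peak spanning V:9546774-9547253, with a signal of 98.0 and rank 262 in the IDR list. In replicate 1 the strongest peak there had a signal of 42.99 and rank 338, and in replicate 2 a signal of 56.1 and rank 241. Both replicate summits fell within 10 bp of the pooled summit, at V:9547022 in replicate 1 and V:9547007 in replicate 2. The window of the H2B gene his-41 held the same peak beyond its 3′ end, so both genes were counted from 1 peak.

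The other peak lay between the H4 gene his-67 and the H2A gene his-68. Its summit was at I:9989011, 121 bp upstream of the his-68 start, in a peak spanning I:9988771-9989250, with a signal of 97.5 and rank 267. Replicate 1 gave a signal of 46.3 and rank 284 there, and replicate 2 gave 50.9 and rank 303. The peak was thus of like size in both replicates. Both histone IDR peaks ranked in the upper part of the list, above the median signal of 84.6, and each lay before an H4 gene, which at his-67 faces the H2A gene his-68. No tRNA, snoRNA or snRNA gene lay within 200 bp of either summit.

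**Figure D1:**
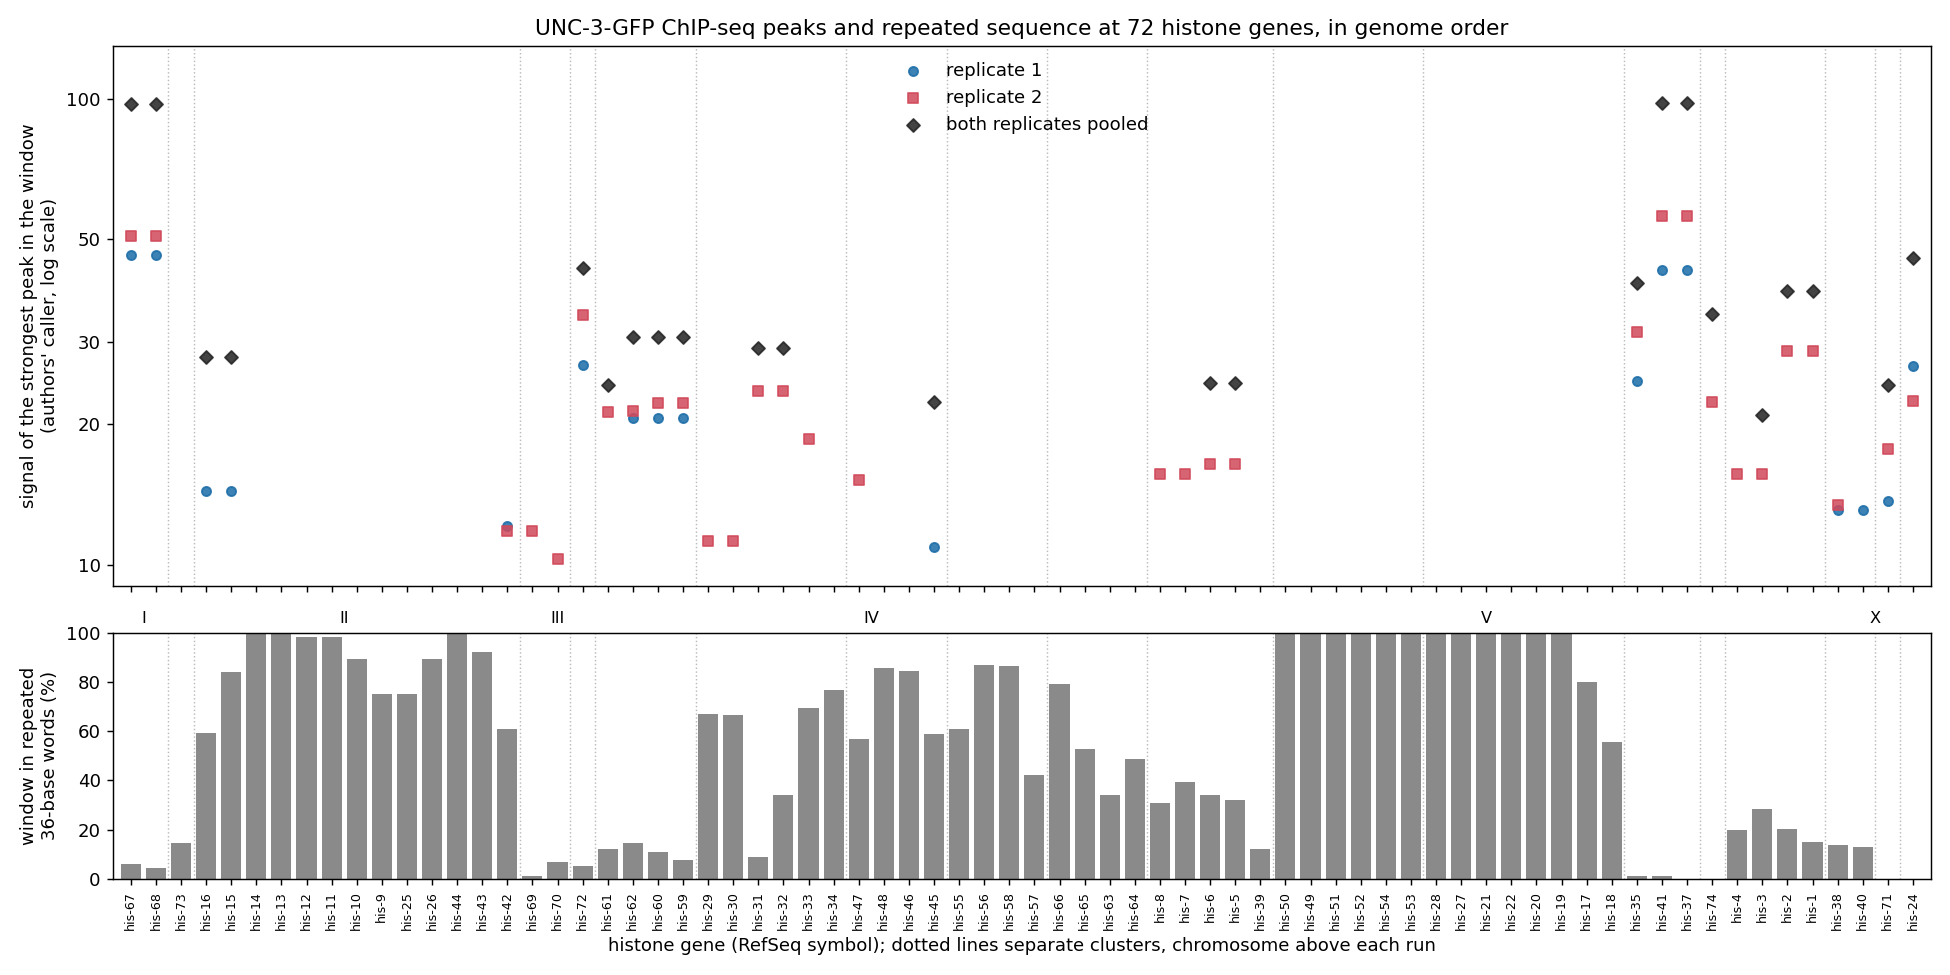
Signal of the strongest peak in each of the 72 histone gene windows (upper panel, log scale, 1 point for each list) and share of the window made of repeated 36-base words (lower panel, percent), in genome order. The pair his-67 and his-68 and the genes his-41 and his-37 stand highest, with pooled signals of 97.5 and 98.0, and runs of genes whose windows are mostly repeated have no points.

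Weaker peaks were spread over more of the genes. A pooled summit lay in the windows of 23 of 72 histone genes (31.9%), against 46.3% of all protein-coding genes. Replicate 1 had a summit at 17 histone genes (23.6%), against 56.2% of all protein-coding genes, and replicate 2 at 31 (43.1%), against 56.7%. The 2 replicates therefore gave near-equal shares over all genes and unequal ones over the histone genes. A summit in replicate 2 and none in replicate 1 was seen at 18 histone genes, and the reverse at 4, while over all 19985 genes these counts were 3312 and 3200. Neighbouring histone genes often shared 1 peak, so these 18 and 4 genes are not independent of each other. No summit of any list was found at 37 histone genes (51.4%), against 26.6% of all protein-coding genes. In promoters, taken as 500 bp before to 100 bp after the start, a pooled summit was found at 16 histone genes (22.2%), against 15.7% of all protein-coding genes. These 16 genes came from 11 distinct peaks, since 1 peak can serve both genes of a divergent pair. The count leaned on replicate 2: the list of replicate 1 alone gave 9 histone promoters, and that of replicate 2 alone gave 21. The same counts over all protein-coding genes were not made for the single lists. Histone genes are short, with a median length of 384 bp against 2026 bp for all protein-coding genes, so their windows cover less sequence. What part the length has in these shares was not tested.

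The pooled summits at histone genes came from 25 distinct peaks, which formed 19 regions once overlapping peaks were joined. For 20 of the 25 the nearest protein-coding start was that of a histone gene, 11 lay in a histone promoter, 7 inside a histone gene and 5 inside another gene. Their signals had a median of 30.6, against 25.5 for the whole pooled list. Taking the strongest peak in each window, the median was 30.8 over the 23 histone genes with one and 28.0 over the 9256 protein-coding genes with one.

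By histone type, a pooled summit was found at 8 of 20 H3 genes, 6 of 16 H4 genes, 5 of 17 H2A genes, 3 of 16 H2B genes and the linker gene his-24, against 46.3% of all protein-coding genes. The H4 share (37.5%) was thus under that of all genes, as was that of H3, and the H2B share (18.8%) was the lowest of the 4 core types. The untyped genes his-39 and his-73 had none in any list. IDR summits were found at 2 H4 genes, 1 H2A gene, 1 H2B gene and 0 H3 genes, against 4.5% of all protein-coding genes. Because genes of different types share peaks within a cluster, these counts are not independent of each other.

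The linker histone gene his-24, on chromosome X and in no cluster with another histone gene, held the strongest pooled peaks of the histone genes outside the IDR list. A summit at X:14490077, 17 bp upstream of its start, had a pooled signal of 45.5 and rank 1393, and a summit beyond its 3′ end had 45.2. Another, 183 bp inside the gene, had a pooled signal of 34.4. At the his-24 start the replicate summits lay 16 bp upstream in replicate 1, with a signal of 25.1, and 2 bp inside the gene in replicate 2, with 22.5. Beyond its 3′ end the signals were 26.7 in replicate 1 and 16.2 in replicate 2. Peaks of moderate size were thus present at both places in both replicates.

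The H3.3-like genes differed among themselves. In the window of his-72, which encodes H3.3, the strongest pooled peak had a signal of 43.3, with its summit 240 bp inside the gene. A second pooled summit, 167 bp upstream of his-72, had a signal of 31.97, and another of 24.6 lay in the neighbouring gene Y75B8A.33. The replicates differed in which of these they showed: the strongest replicate 1 peak, of 26.9, lay 146 bp upstream of the start, and the strongest replicate 2 peak, of 34.3, lay 254 bp inside the gene. At his-71, another H3.3 gene, the pooled peaks were 24.3 beyond the 3′ end and 24.2 at 200 bp upstream, below the median of 25.5 over that list. The strongest his-71 peaks of the replicates were 13.7 at 190 bp upstream in replicate 1 and 17.7 at 484 bp upstream in replicate 2. Their summits thus lay apart here too. At the H3.3-like gene his-74 the strongest peak had 22.3 in replicate 2 and 34.6 pooled, with none in replicate 1, and both of its pooled summits lay inside the neighbouring gene ccch-3. The H3.3-like genes his-69 and his-70 had no pooled or replicate 1 summit, and only weak replicate 2 peaks of 11.8 and 10.3. The 5 H3.3-like genes thus ranged from a pooled signal of 43.3 at his-72 to no pooled peak at his-69 and his-70.

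Among the clustered genes, the largest pooled signals apart from those at his-37 and his-67/his-68 belonged to the his-35/his-41 and his-2/his-1 pairs. In the window of the H2A gene his-35 a pooled peak of 40.3 lay nearest the start of mdf-1, a spindle checkpoint gene, with 17.2 in replicate 1 and 21.4 in replicate 2 at the same place. A pooled peak of 35.1 had its summit 30 bp inside the H2B gene his-41, where the nearest replicate 2 peak, of 31.6, lay 33 bp before the his-41 start and replicate 1 had no summit between the pair's starts. At the his-2/his-1 pair a pooled peak of 38.7 lay 85 bp inside the H4 gene his-1, with 28.7 in replicate 2 and none in replicate 1. That peak was therefore seen in 1 replicate only.

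The remaining pairs had lower values. A pooled peak of 30.8 beyond the 3′ end of the H4 gene his-60 fell in the windows of his-62, his-60 and his-59, and the replicate peaks nearest to it had 14.7 in replicate 1 and 21.4 in replicate 2. A pooled peak of 29.2 lay between the H4 gene his-31 and the H3 gene his-32, with 23.6 in replicate 2 and none in replicate 1 at these genes. The his-6/his-5 pair had a pooled signal of 24.6 and 16.4 in replicate 2, again with none in replicate 1. At the his-16/his-15 pair the pooled peak of 27.9 lay inside the gene ZK131.11, and its replicate 1 signal was 14.4, with none in replicate 2. Only the his-60 group among these had peaks in both replicates.

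A pooled summit lay between the starts of 4 of 31 divergent histone pairs (12.9%), against 29.3% of all divergent protein-coding pairs and 32.1% of the 327 pairs whose stretch was as long as those of the histone pairs. The 4 pairs were his-67/his-68, his-61/his-62, his-31/his-32 and his-6/his-5. Replicate 1 had a summit between the starts of 1 histone pair, against 28.3% of all divergent pairs, and replicate 2 at 6 histone pairs (19.4%), against 30.8%. Counting the whole windows, 10 of the 31 histone pairs (32.3%) had a pooled summit, against 62.8% of all divergent protein-coding pairs, so at 6 of these 10 the summits lay inside a gene or beyond its 3′ end.

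**Figure D2:**
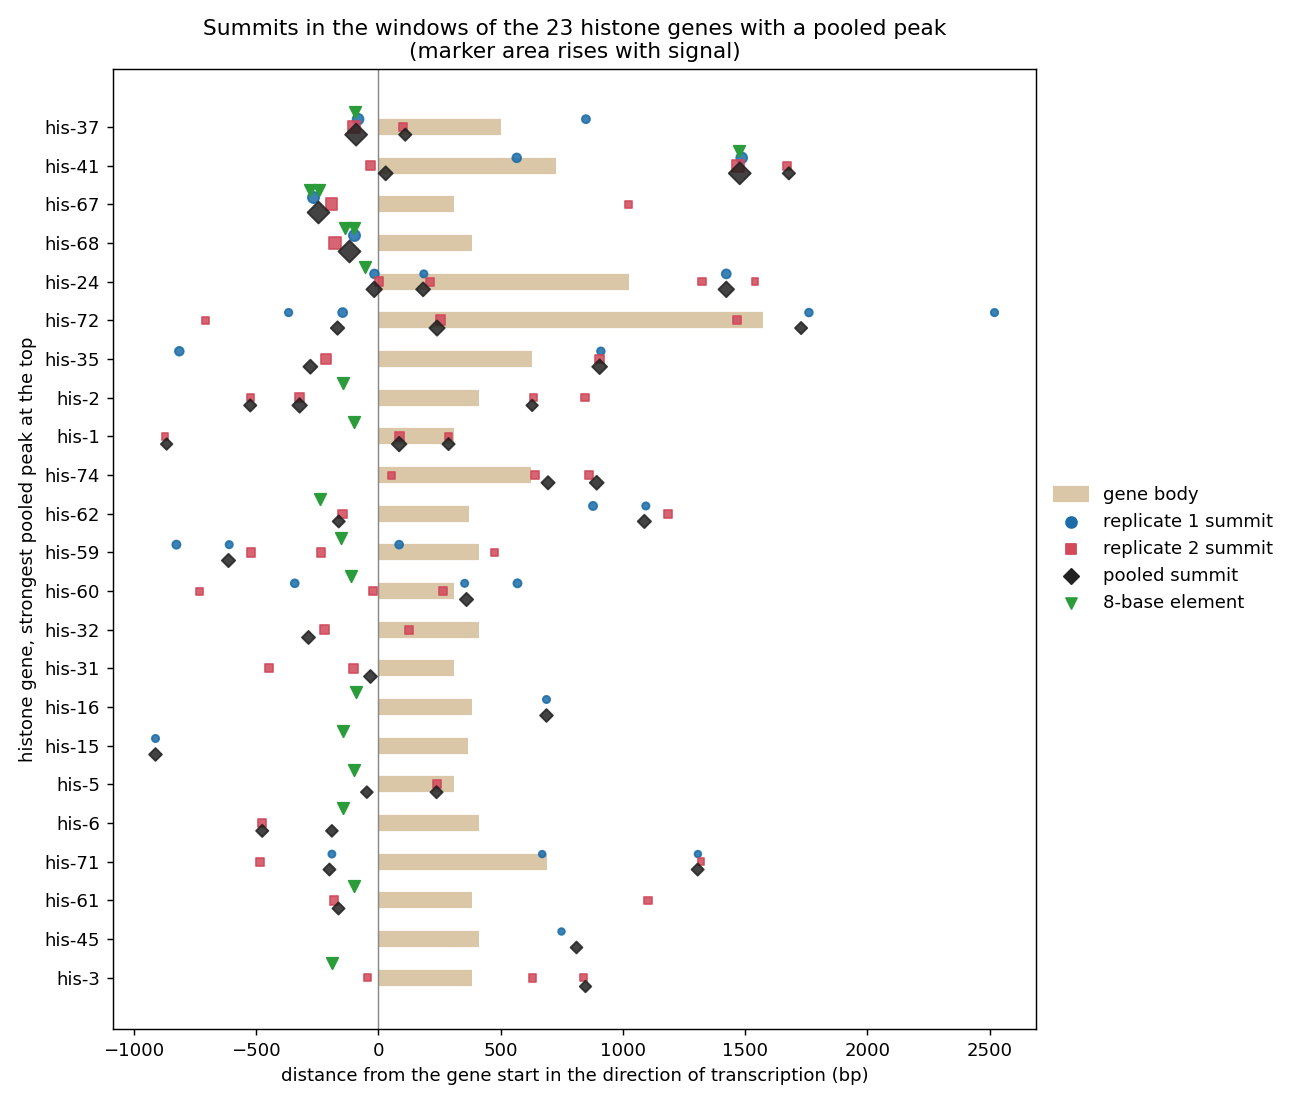
Summits of replicate 1, replicate 2 and pooled peaks in the windows of the 23 histone genes with a pooled summit, by distance in bp from the gene start in the direction of transcription, with marker area rising with signal, gene bodies as bars and the 8-base element CTGCGGGG as triangles. At his-37 and his-68 the strongest summits lie just before the start and next to the element, and at his-2, his-1, his-16 and his-15 the element has no summit beside it.

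Much of the sequence at these genes occurs more than once in the genome. A position was counted as repeated when the 36-base word starting there, on either strand, occurs elsewhere in the genome. The repeated share of the window had a median of 59.1% at histone genes, against 0.690% at all protein-coding genes. Within the gene alone the median was 99.4% at histone genes. Neither the read length nor the treatment of reads that match several places is stated in the labels, so this share describes the sequence and is not a measure of what could be mapped.

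The share of histone genes with a peak was highest where the window was least repeated. Windows under 10% repeated held a pooled summit at 11 of 13 histone genes (84.6%), against 48.9% of all protein-coding genes of that class. With 10% to under 50% repeated, 9 of 19 histone genes (47.4%) had one, against 37.5% of all genes. With 50% or more repeated, 3 of 40 histone genes (7.5%) had one, against 39 of 459 genes in all (8.5%). All 4 genes with an IDR summit, which shared 2 distinct peaks, were among the 13 with the least repeated windows, and none was among the 40. Over all protein-coding genes an IDR summit was found at 4.74% in the least repeated class. In the most repeated class it was found at 1 of 459 (0.218%), so the absence at the 40 histone genes is near that background. No summit of any list was found at 32 of those 40 histone genes (80.0%), against 84.3% of all genes of that class. These classes were chosen after the peaks of the single genes had been seen.

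**Figure D3:**
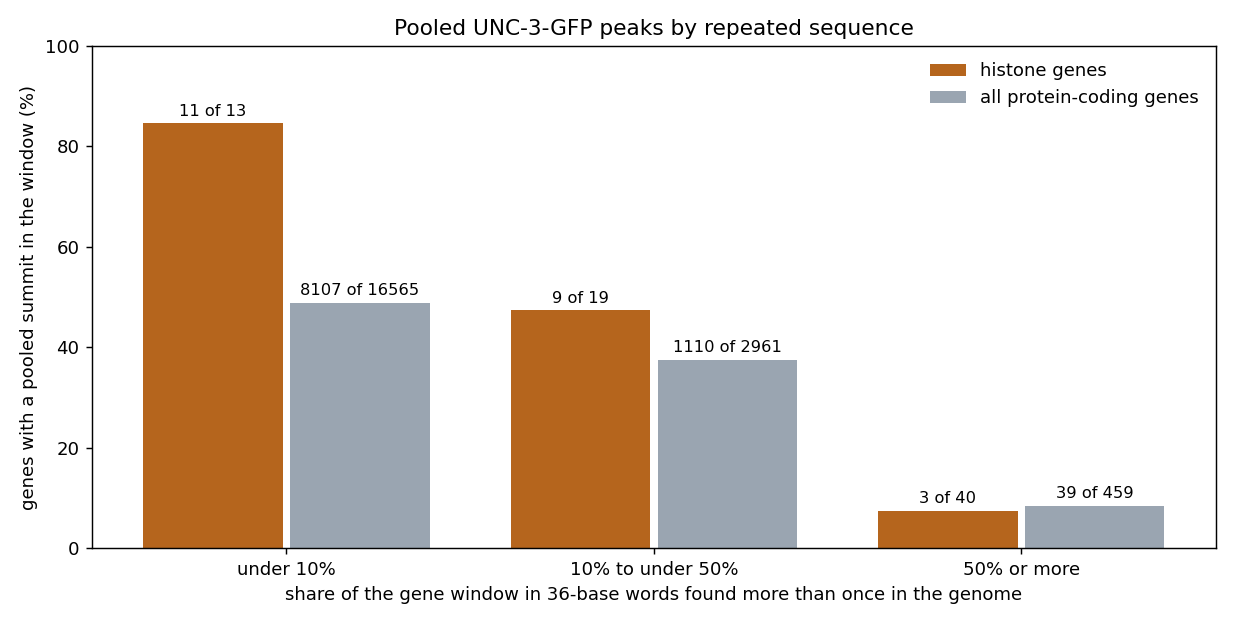
Share of genes (percent) with a pooled summit in the window, for histone genes on the left and all protein-coding genes on the right of each pair of bars, by the share of the window in repeated 36-base words, with counts above the bars. The share is 84.6% of histone genes in the least repeated class and 7.5% in the most repeated one, where all genes are at 8.5%.

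The same held by cluster. On chromosome V, the 6 genes from his-50 to his-53 and the 8 genes from his-28 to his-18 along the chromosome had no peak in any list, with 100% and 90.7% of their regions repeated. The windows of the H3 gene his-9 and the H4 gene his-10 on chromosome II, 75.1% and 89.6% repeated, had none either. Likewise the H2A gene his-12 and the H2B gene his-11 had none, at 98.5% repeated. The largest cluster, 13 genes on chromosome II, had 1 pooled peak at its edge, and it lay in ZK131.11. Of the 31 divergent pairs, 17 had a stretch that occurs more than once in the genome and 0 of these had a pooled summit in it, against 4 of the 14 with a unique stretch. By a wider criterion, a stretch with 50% or more of its positions repeated, 0 of 28 protein-coding pairs of that length had one, and 20 of these 28 were histone pairs.

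Repeated sequence did not separate the genes fully. The clusters of his-55 to his-58 and of his-63 to his-66 on chromosome IV had no peak in any list, with 51.3% and 37.5% of the region repeated. Most of their windows were 52.7% to 86.9% repeated, in the most repeated class. Those of his-57, his-63 and his-64 were less repeated, at 42.3%, 34.0% and 48.6%. The windows of his-69 and his-70 were only 1.17% and 6.69% repeated and had nothing above a weak replicate 2 peak. The H4 gene his-38 and the H3 gene his-40, at 13.6% and 13.1%, had no pooled summit and replicate signals of 13.1 to 13.4. The H2B gene his-4 and the H2A gene his-7 also had replicate 2 peaks alone, of 15.6 and 15.7.

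Gene structure moved with repetition. The 8 histone genes with an intron were his-24, his-35, his-37, his-41, his-57, his-71, his-72 and his-74. A pooled summit lay in the windows of 7 of these 8, against 16 of the 64 single-exon genes and 46.3% of all protein-coding genes. Neighbouring windows of his-35, his-41 and his-37 shared peaks, so the 7 are not independent of each other. Their windows were 0.566% repeated in the median, against 66.9% for single-exon genes. Within single-exon genes a pooled summit was found at 4 of 6 with the least repeated windows, 9 of 18 in the middle class and 3 of 40 in the most repeated. Over all protein-coding genes the shares of these classes were 48.9%, 37.5% and 8.5%. Introns and unique sequence cannot be told apart here as features of the genes with peaks, because nearly all intron-bearing genes had unique windows.

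Sequence at the summits was then examined. The COE palindrome TCCCNNGGGA, read on both strands, was found within 100 bp of 0 of the 2 IDR and 0 of the 25 pooled summits at histone genes, against 4.91% of all IDR summits and 0.812% of all pooled summits. No match says only that these letters are not in that stretch. TATAAA on either strand was present between the starts of 24 of 31 histone pairs (77.4%), against 47.1% of the 327 protein-coding pairs of the same length range. Identical copies of a stretch count here as separate pairs.

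The run CTGCGGGG, chosen after the printed sequences had been seen, was searched last of 3 motifs. Its presence in those sequences follows from that choice. The run was present within 500 bp upstream of 26 of 72 histone genes (36.1%), against 72 of 19985 protein-coding genes (0.36%), of which those 26 are part. It lay between the starts of 12 of 31 histone pairs, against 13 of the 327 protein-coding pairs of the same length range, again with the 12 included. By type it stood before 8 of 16 H4 genes, 6 of 17 H2A genes, 6 of 20 H3 genes, 5 of 16 H2B genes and his-24. A run between the starts of a pair was counted for both genes. Identical copies of a stretch were also counted each time. The stretch shared by his-16/his-15, his-12/his-11 and his-44/his-43 occurs 3 times in the genome. That shared by his-50/his-49 and his-28/his-27 occurs 2 times. The counts by gene, pair and type are therefore not counts of independent sites. Distances to a gene start were counted from the base of the run farthest from that start. Of the 6 pairs of H3 with H4 that hold the run, 5 had it 100 to 103 bp before the H4 start and 143 bp before the H3 start. These 5 include the identical stretches of his-50/his-49 and his-28/his-27. At his-60/his-59 the run lay 110 bp before the H4 start and 154 bp before the H3 start. The printed sequences before his-37 and his-24 share a run of 20 bases around it.

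Both histone IDR summits lay at this run. At his-37 the summit was inside it, and at his-67/his-68 it was 7 bp away, with a second copy on the other side. The sequences at his-37, and at his-24 and his-6/his-5 below, were among those seen when the run was chosen. Their matches are therefore not independent of the choice. Over the whole IDR list 3 of 754 summits (0.398%) had the run within 100 bp, so 2 of the 3 were the histone peaks, and the nearest protein-coding start of the remaining one was that of phy-4, 9164 bp away. In the pooled list 5 of 25 histone peaks had it within 100 bp, against 38 of 15515 peaks in all (0.245%). The 3 further pooled peaks were at his-24, his-61/his-62 and his-6/his-5, with distances from summit to run of 31, 68 and 47 bp. Those at his-61/his-62 and his-6/his-5 were weak, with pooled signals of 24.2 and 22.7, below the median of 25.5 over that list. Replicate 1 had no summit between the starts of either pair, and replicate 2 had one at his-61/his-62 only. At his-2/his-1 the nearest pooled summit was 179 bp away, and at his-12/his-11, his-50/his-49 and his-28/his-27 there was no peak. The run stood upstream of 15 of the 23 histone genes with a pooled summit and 11 of the 49 without, with both genes of a pair counted here too. Not all of the 15 had a pooled summit near it: at his-16/his-15 the pooled peak lay in ZK131.11, and at his-60/his-59 it was 462 bp from the run. Between the starts of his-60/his-59 replicate 2 had a summit 81 bp from the run, with a signal of 22.2. Of the 11 without a pooled summit, all but his-4 (19.65% repeated) had windows 55.5% to 100% repeated. What part repetition has in this split was not tested. The run is a string found in the sequence of these genes and no factor was shown to bind it here.

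Other genes that supply or deposit histones were counted from a list of 27, all matched in the annotation: linker histones, variants, chaperones and the histone mRNA-binding protein gene cdl-1. Beside the 4 of 72 histone genes with an IDR summit, 4 of these 27 genes had one, and beside the 23 of 72 histone genes with a pooled summit, 18 of the 27 had one, while the shares over all protein-coding genes were 4.5% and 46.3%. The highest was chaf-2, a chromatin assembly factor subunit gene, with a signal of 166 (nearest start Y71G12B.30) and a second peak of 92.9 that lay 95 bp upstream of chaf-2. Its strongest replicate peaks were 71.8 in replicate 1 and 91.5 in replicate 2. The histone chaperone gene unc-85, a homologue of Asf1, had 2 IDR peaks of 111 and 66.6, at 484 and 266 bp upstream of its start, and replicate signals of 45.8 and 63.03. The windows of both genes thus held strong peaks in each replicate. The window of htz-1, which encodes the variant H2A.Z, held a peak of 86.2 that lay nearest the cohesin release gene wapl-1. The window of the linker-like gene hil-7 held a peak of 63.5 beyond the 3′ end of the gene, 1375 bp downstream of its start. Below the IDR list, pooled signals were 51.7 at xnp-1, the homologue of the chromatin remodeller ATRX, 51.5 at lin-53, a histone-binding chaperone, and 32.7 at the centromeric H3 gene cpar-1. The replicate lists had summits at 16 of the 27 in replicate 1 and 20 in replicate 2, against 56.2% and 56.7% of all protein-coding genes, so the replicate 1 count was near its background.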

How the data were processed

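The 2 replicates of the single group were used through 4 deposited peak lists in the ce11 build. Each replicate list was called by the authors on that replicate with a control alignment, the pooled list on both replicates together, and the IDR list was derived from these, per the file headers in the deposited notes. The signal of each peak is the deposited value of the authors' peak caller. The aligner, the caller and the IDR threshold are not stated in the labels, depth is unknown, and the control was not analysed here.

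Summits were placed in windows of Ensembl genes on WBcel235, whose chromosome lengths hold all peaks, with symbols and product types from RefSeq matched by gene ID. The step that places summits and the repeat step, which counts 36-base words, were tested on simulated data. Python 3.11.15, pandas 2.3.3, numpy 2.4.6 and matplotlib 3.10.9 were used. No test was run and no p-value is given, since the 1 group allows no contrast. The genes and lists were chosen with earlier results of these data known. The named genes were those with an IDR summit, those holding the 12 strongest pooled peaks, his-24 and the H3.3-like genes, and examples without a pooled summit in each core type by lowest number. The other histone genes named were chosen after their values or sequences had been seen. The repeat classes, the intron split, the joined regions and the CTGCGGGG search were chosen after values or sequences had been seen.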

Additional observations from a re-analysis of the deposited data

How the results depend on the processing

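Of 53 alternatives over 10 results, 38 stayed within 1.5 times the reported count or within the replicate spread. With the gene alone as the window, 0 histone genes, 0 distinct peaks and 0 clusters had an IDR summit, 0 genes were strong in both replicates, 1 divergent pair had an IDR summit (1 also with 500 bp on both sides), 6 genes had a pooled summit and the median strongest signal was 34.8. Most summits lie outside the genes, which by construction fall out of that window. The median strongest pooled signal was 30.01 with 2000 bp on both sides and 30.01 with any overlap. Read from one replicate's list in place of the pooled one, it was 20.6 to 21.2, since single lists carry lower signals. Leaving out a replicate gave 4 to 5 genes, 2 to 3 distinct peaks, 2 to 3 clusters and 2 pairs with an IDR-sized summit, 17 to 31 genes with a summit, and 9 to 21 with one in the promoter. The median repeated share was 57.8% with 50-base words. Chosen after seeing the data, the repeated share of the gene in place of the window gave 6 genes with a pooled summit, of 50 mostly repeated, and 50-base words gave 3 of 40. No paired analysis was possible because there is 1 group. Depth and read length are unknown, so a missing peak cannot be told apart from one not detectable, least of all in repeated sequence, and 2 replicates limit what can be said of differences between them.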
